A study of Homo sapiens with 15 samples.

Results

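The miR-106b-25 and miR-106a-363 clusters are the paralogs of the MIR17HG cluster on chromosome 13, which runs from miR-17 to miR-92a, and 10 of their mature products were followed here among the 1707 mature miRNAs counted in U87-MG cells. The members were chosen by name from a list of mature products of these clusters, by a rule that sets no threshold on a measured value. The list leaves out miR-18b-3p, which the count tables also hold. From miR-106b-25 came hsa-miR-106b-5p, hsa-miR-106b-3p, hsa-miR-93-5p, hsa-miR-93-3p, hsa-miR-25-3p and hsa-miR-25-5p (6 members). From miR-106a-363 came hsa-miR-106a-5p, hsa-miR-20b-5p, hsa-miR-363-3p and hsa-miR-18b-5p (4 members). The prefix hsa-, for human, is left out below.

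U87-MG is an established glioblastoma cell line, and small RNA was sequenced in 5 groups of 3 libraries. Control cells, of genotype WT, were kept either in normoxia (21% O2) or in hypoxia (1% O2) for 24 h. The knockout cells were made with CRISPR/Cas9 and lacked HIF1α (HIF1α-KO), HIF2α (HIF2α-KO) or both hypoxia-inducible factors (HIF1α/HIF2α-KO), and all were kept in 1% O2 for 24 h. No normoxic knockout libraries were analysed here, and the sources used here do not say whether the knockout cells were clones or pools. Because the assay measures miRNAs, the mRNAs of the targeted genes could not be checked. Nothing in the labels says that the 3 replicates were separate cultures, so p-values measure the spread between these libraries.

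A primary transcript that carries several miRNA hairpins is cut by Drosha and then by Dicer, and each hairpin yields a 5p and a 3p strand, of which one is usually kept by Argonaute. The bases 2 to 8 of the kept strand, its seed, pair with target mRNAs, so miRNAs with the same seed repress overlapping sets of genes. The miR-17 family is known for repressing brakes on the cell cycle such as CDKN1A and regulators of cell death such as BCL2L11, and miR-106b-25 lies in MCM7, a gene of the replicative helicase that E2F factors activate. HIF1α and HIF2α are the oxygen-sensitive subunits of the factors that switch on genes in hypoxia.

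In GRCh38 with the GENCODE annotation, miR-106b-25 lies at chr7:100093560-100094074 on the minus strand and holds 3 hairpins in 515 bp. All of it falls within MCM7 (chr7:100092728-100101940, ENSG00000166508.17), in the intron between exons 13 and 14 of the 15 exons of transcript ENST00000303887.9. The miR-106a-363 cluster lies at chrX:134169378-134170278 on the minus strand and holds 6 hairpins in 901 bp, inside AC002407.1, which is annotated as a processed transcript that hosts noncoding RNAs. Its hairpins for miR-19b and miR-92a give 3p products that the MIR17HG cluster also gives, so these were not counted as members.

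The mature sequences below, from RefSeq (GRCh38.p14), are shown because the seeds group the members and because 3 of the X-linked members are close copies of MIR17HG products. Bases 2 to 8 are in capitals. The first group shares the seed AAAGUGC of the miR-17 family, with miR-17-5p and miR-20a-5p of the MIR17HG cluster for comparison.
hsa-miR-106b-5p: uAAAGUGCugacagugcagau
hsa-miR-93-5p: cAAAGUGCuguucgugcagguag
hsa-miR-106a-5p: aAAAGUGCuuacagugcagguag
hsa-miR-17-5p: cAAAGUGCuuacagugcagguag
hsa-miR-20b-5p: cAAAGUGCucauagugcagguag
hsa-miR-20a-5p: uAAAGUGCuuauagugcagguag

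The second group has the seed AAGGUGC, and the third has AUUGCAC, which miR-92a-3p, miR-92b-3p and miR-32-5p also carry.
hsa-miR-18b-5p: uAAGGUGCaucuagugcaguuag
hsa-miR-18a-5p: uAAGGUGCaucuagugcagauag
hsa-miR-25-3p: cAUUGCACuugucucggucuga
hsa-miR-363-3p: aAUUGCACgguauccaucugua
hsa-miR-92a-3p: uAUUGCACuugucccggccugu

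The remaining strands of miR-106b-25 each had a seed that no other of the clusters' products shared. They are shown because the balance between the strands of a hairpin is described below.
hsa-miR-106b-3p: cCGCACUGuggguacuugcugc
hsa-miR-93-3p: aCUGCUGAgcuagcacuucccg
hsa-miR-25-5p: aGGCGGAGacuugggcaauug

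The libraries held 10360337 to 22496373 counts, so that 3 counts, taken as the detection floor, came to at most 0.290 CPM, counts scaled to a common library total, a limit that covers counting error only. CPM values below are scaled with the trimmed mean of M-values (TMM), and 562 miRNAs passed the filter on low counts. The miRNAs known to be abundant in glioblastoma cells, miR-21-5p, miR-221-3p, miR-222-3p and miR-10b-5p, summed to 198117 to 301285 CPM. Summed miR-126, an endothelial marker, split the libraries into 9 at 14.0 to 50.8 CPM and 6 at 4.01 to 6.64 CPM. The lower set held control replicates 2 and 3 in hypoxia, HIF1α-KO replicates 1 and 2, HIF2α-KO replicate 2 and HIF1α/HIF2α-KO replicate 3. The highest sum in any library was 18.5 CPM for 3 erythroid miRNAs, 5.53 CPM for 4 leukocyte miRNAs, 78.2 CPM for 3 epithelial miRNAs and 45.1 CPM for 3 muscle miRNAs. Of the leukocyte and of the muscle miRNAs 1 had 3 or fewer counts in every library of each group. Muscle miRNAs summed to 20.2 to 45.1 CPM in HIF1α/HIF2α-KO cells and to 6.73 to 27.9 CPM in hypoxic control cells, and the part of these markers in the members' results was not tested.

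The members came almost wholly from chromosome 7. The 10 members together took 0.439% to 0.637% of a library's counts, and miR-106b-25 supplied 99.7% to 99.9% of them. Summed over its 6 products, miR-106b-25 stood at 5829.9 ± 439 CPM in normoxic and 5843 ± 328 CPM in hypoxic control cells (SD, n = 3 each). Its sum was 5231 ± 259.8 CPM without HIF1α, 5800.3 ± 879 CPM without HIF2α and 4706 ± 385 CPM without both (SD, n = 3 each). The 4 X-linked members summed to 7.45 ± 0.908, 8.34 ± 0.822, 9.74 ± 0.182, 10.5 ± 1.56 and 13.2 ± 3.27 CPM in the same order. The X-linked sum was highest in HIF1α/HIF2α-KO cells, where replicate 2 stood at 9.55 CPM and the others at 14.0 and 15.9 CPM.

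Within miR-106b-25 the products were unequal. miR-25-3p, with 31370 to 89414 counts a library, ranked 22 of 1707 miRNAs by mean CPM and held 57.2% to 68.3% of the cluster's counts. miR-106b-3p (8888 to 20889 counts, rank 44) held 15.2% to 19.2%, and miR-93-5p (8651 to 16895 counts, rank 50) held 12.8% to 20.9%. miR-106b-5p, the strand that names the family member with the miR-17 seed, had 1037 to 1889 counts (rank 126). miR-25-5p (366 to 1280 counts, rank 148) and miR-93-3p (210 to 472 counts, rank 196) were the least abundant products.

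The X-linked members were scarce, and 3 of the 4 have a close copy in the MIR17HG cluster. miR-18b-5p had 38 to 146 counts (rank 309) and differs from miR-18a-5p only at U20A, counted from 1 at the 5′ end of the first-named miRNA. Its counts were 93.6% to 100% of those of miR-18a-5p, were equal to them in 4 of 15 libraries, and never differed by more than 4 counts. The other strand of its hairpin, miR-18b-3p, had 0 to 3 counts. A read that ends before base 20 does not tell miR-18b-5p from miR-18a-5p, and the origin of these counts was not tested.

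miR-106a-5p had 21 to 68 counts and differs from miR-17-5p only at A1C. It came to 0.727% to 1.33% of the count of miR-17-5p. miR-20b-5p had 11 to 49 counts, differs from miR-20a-5p at C1U and C10U, and came to 0.448% to 0.936% of that partner. The plot of each X-linked member against its copy shows equal counts for miR-18b-5p and about 1% of the partner for the other pairs.

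**Figure D1:**
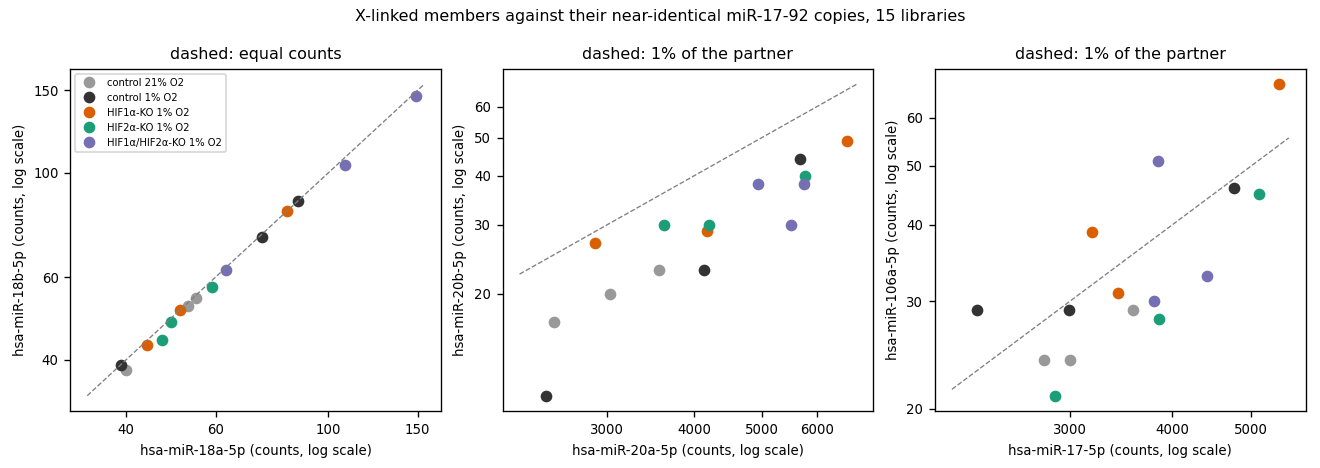
Counts per library (log axes) of miR-18b-5p, miR-20b-5p and miR-106a-5p on the y axes against miR-18a-5p, miR-20a-5p and miR-17-5p on the x axes, coloured by group, 15 libraries each. Points lie along the line of equal counts for miR-18b-5p (93.6% to 100%) and near 1% of the partner for miR-20b-5p (0.448% to 0.936%) and miR-106a-5p (0.727% to 1.33%).

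miR-363-3p, which shares the seed of miR-25-3p, is the X-linked member without a close copy, since 12 of its 22 bases differ from miR-92a-3p. Its counts in replicates 1, 2 and 3 were 5, 6 and 11 in normoxic control cells, 9, 0 and 2 in hypoxic control cells, 2, 1 and 5 in HIF1α-KO cells, 5, 0 and 4 in HIF2α-KO cells, and 6, 4 and 1 in HIF1α/HIF2α-KO cells. It exceeded the floor of 3 counts in 9 of 15 libraries, which were the 9 libraries of the higher miR-126 set. Libraries of the lower set had 0 to 2 counts each, and the part of that split in these counts was not tested. The hypoxic groups overlapped each other, and a difference between them was not detectable at this depth. miR-363-3p failed the filter on low counts, and the other 9 members passed and were tested.

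In hypoxia without HIF1α, no member passed the test. Of the 9 members tested, 0 had an adjusted p under 0.05 in HIF1α-KO against control cells in hypoxia (edgeR quasi-likelihood test with Benjamini-Hochberg adjustment over 562 miRNAs), where 1.25% of all miRNAs tested passed. At an unadjusted p under 0.05 there was 1 member, against 11.9% of all miRNAs. The median log2 fold change of the members was -0.04, beside -0.05 over all miRNAs tested. In the same comparison miR-210-3p, a well-known target of HIF1α, fell from 1153, 1039 and 935 CPM to 249.6, 240.5 and 436 CPM (log2 fold change -1.76, SE 0.31, adjusted p = 0.013 with edgeR).

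The member with the lowest p there was miR-20b-5p. It stood at 1.01, 1.90 and 1.67 CPM in the hypoxic control libraries and at 2.36, 2.39 and 2.43 CPM in the HIF1α-KO libraries. All 3 HIF1α-KO libraries lay above all 3 control libraries, at 11 to 49 counts a library over the whole series. The log2 fold change was 0.61 (SE 0.25, 95% interval 0.07 to 1.15) with an edgeR adjusted p of 0.320. The part of reads from its abundant copy miR-20a-5p in this count was not tested.

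miR-25-3p, whose best known targets include BCL2L11, was at 4041, 3865 and 3793 CPM in hypoxic control cells and at 3353, 3360.4 and 3378 CPM in HIF1α-KO cells. The groups did not overlap, but the log2 fold change of -0.21 (SE 0.12) had an edgeR adjusted p of 0.481, and its 95% interval ran from -0.46 to 0.04. The intervals of miR-106b-5p (-0.44 to 0.36), miR-93-5p (-0.19 to 0.52) and miR-93-3p (-0.33 to 0.41) also held 0.

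In hypoxia without HIF2α, again 0 of 9 members had an adjusted p under 0.05, and so had 0% of all miRNAs tested in HIF2α-KO against control cells. At an unadjusted p under 0.05 there were 3 members, all with higher means in HIF2α-KO cells, against 15.3% of all miRNAs. These 3, miR-106b-5p, miR-93-5p and miR-20b-5p, all carry the AAAGUGC seed. The fourth member with it, miR-106a-5p, had a log2 fold change of 0.33 (SE 0.31, edgeR adjusted p = 0.685). The MIR17HG products with this seed were higher too: miR-17-5p by 0.74 (SE 0.18, edgeR adjusted p = 0.124) and miR-20a-5p by 0.67 (SE 0.21, edgeR adjusted p = 0.172) on the log2 scale. HIF2α-KO replicate 2 was the highest of all 15 libraries for both, at 486 and 549 CPM. For miR-17-5p all HIF2α-KO libraries lay above all hypoxic control libraries. For miR-20a-5p HIF2α-KO replicate 1 (283 CPM) lay inside the control range of 226 to 301 CPM.

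miR-93-5p, the most abundant carrier of the miR-17 seed in these cells, was at 797, 730.2 and 733 CPM in hypoxic control libraries and at 1044, 1384 and 822 CPM in HIF2α-KO libraries. The groups did not overlap, and HIF2α-KO replicate 2 was the highest of all 15 libraries. The log2 fold change was 0.52 (SE 0.17, 95% interval 0.17 to 0.88) with an edgeR adjusted p of 0.184. Without HIF2α-KO replicate 2 it was 0.29 with an adjusted p of 0.602.

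miR-106b-5p was at 95.6, 81.6 and 103 CPM in hypoxic control libraries and at 100.4, 179 and 126 CPM in HIF2α-KO libraries. The groups overlapped, with HIF2α-KO replicate 1 inside the control range and replicate 2 the highest of the series. The log2 fold change was 0.53 (SE 0.19, 95% interval 0.13 to 0.94), with an edgeR adjusted p of 0.219, and without HIF2α-KO replicate 2 it was 0.25 with an adjusted p of 0.680. That library is also the only HIF2α-KO library in the lower miR-126 set.

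miR-20b-5p was at 2.35, 3.81 and 2.85 CPM in HIF2α-KO cells, above the 1.01, 1.90 and 1.67 CPM of hypoxic control cells. Its log2 fold change was 0.93 (SE 0.25, 95% interval 0.39 to 1.47, edgeR adjusted p = 0.124). The 3p strands, which have other seeds, had small differences: miR-106b-3p 0.05 (SE 0.15), miR-93-3p -0.03 (SE 0.17) and miR-25-3p -0.18 (SE 0.12) on the log2 scale. Of the 5p members with other seeds, miR-18b-5p differed by 0.06 (SE 0.26). With each library left out in turn, miR-25-5p ran from -0.43 to 0.10.

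With both factors knocked out, 0 of 9 members had an adjusted p under 0.05 in HIF1α/HIF2α-KO against control cells in hypoxia, where 5.87% of all miRNAs tested passed. At an unadjusted p under 0.05 there were 4 members, against 24.4% of all miRNAs, 2 with higher and 2 with lower means. The median log2 fold change was -0.17 over the 6 members of miR-106b-25, with miR-106b-5p at 0.26 (SE 0.19), and 0.72 over the 3 tested members of miR-106a-363, beside -0.02 over all miRNAs. The difference between the clusters was not tested, and the second median includes miR-18b-5p.

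miR-18b-5p, whose counts cannot be told apart from those of miR-18a-5p, had the lowest adjusted p of any member. It was at 3.59, 3.76 and 5.31 CPM in hypoxic control libraries and at 9.19, 4.70 and 8.53 CPM in HIF1α/HIF2α-KO libraries. Replicate 2 of HIF1α/HIF2α-KO lay inside the control range and the other libraries lay above it. The log2 fold change was 0.82 (SE 0.25, 95% interval 0.28 to 1.36) with an edgeR adjusted p of 0.059, while miR-18a-5p had 0.85 (SE 0.25, adjusted p = 0.053 with edgeR). Within the higher miR-126 set the values were 3.59 CPM in the control library and 9.19 and 4.70 CPM in HIF1α/HIF2α-KO libraries, and within the lower set 3.76 and 5.31 CPM against 8.53 CPM. Without HIF1α/HIF2α-KO replicate 2 the log2 fold change was 1.10 with an edgeR adjusted p of 0.017, and without control replicate 3 it was 1.04 with 0.044. The other 4 fits that left out a library did not pass, down to 0.65 with an edgeR adjusted p of 0.196 without HIF1α/HIF2α-KO replicate 1.

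miR-20b-5p was at 2.39, 2.27 and 3.12 CPM in HIF1α/HIF2α-KO cells, all above the hypoxic control libraries (log2 fold change 0.72, SE 0.25, edgeR adjusted p = 0.083). Of the MIR17HG products 9 of 12 were tested, 0 had an adjusted p under 0.05, and 5 had an unadjusted p under 0.05 with higher means. miR-17-5p differed by 0.47 (SE 0.18, edgeR adjusted p = 0.112) and miR-20a-5p by 0.62 (SE 0.21, edgeR adjusted p = 0.074) on the log2 scale.

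miR-106b-3p was at 1193, 903 and 954 CPM in hypoxic control libraries and at 715, 779.5 and 729 CPM in HIF1α/HIF2α-KO libraries. All HIF1α/HIF2α-KO libraries lay below all controls, and the log2 fold change was -0.46 (SE 0.15, 95% interval -0.77 to -0.14) with an edgeR adjusted p of 0.067. miR-25-3p was at 2788, 3473 and 2929.9 CPM in HIF1α/HIF2α-KO cells, below the 3793 to 4041 CPM of hypoxic control cells (log2 fold change -0.35, SE 0.12, edgeR adjusted p = 0.074). miR-93-5p, from the same transcript, was at 715, 701 and 742 CPM, which overlapped the controls (log2 fold change -0.07, SE 0.17, 95% interval -0.42 to 0.29).

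**Figure D2:**
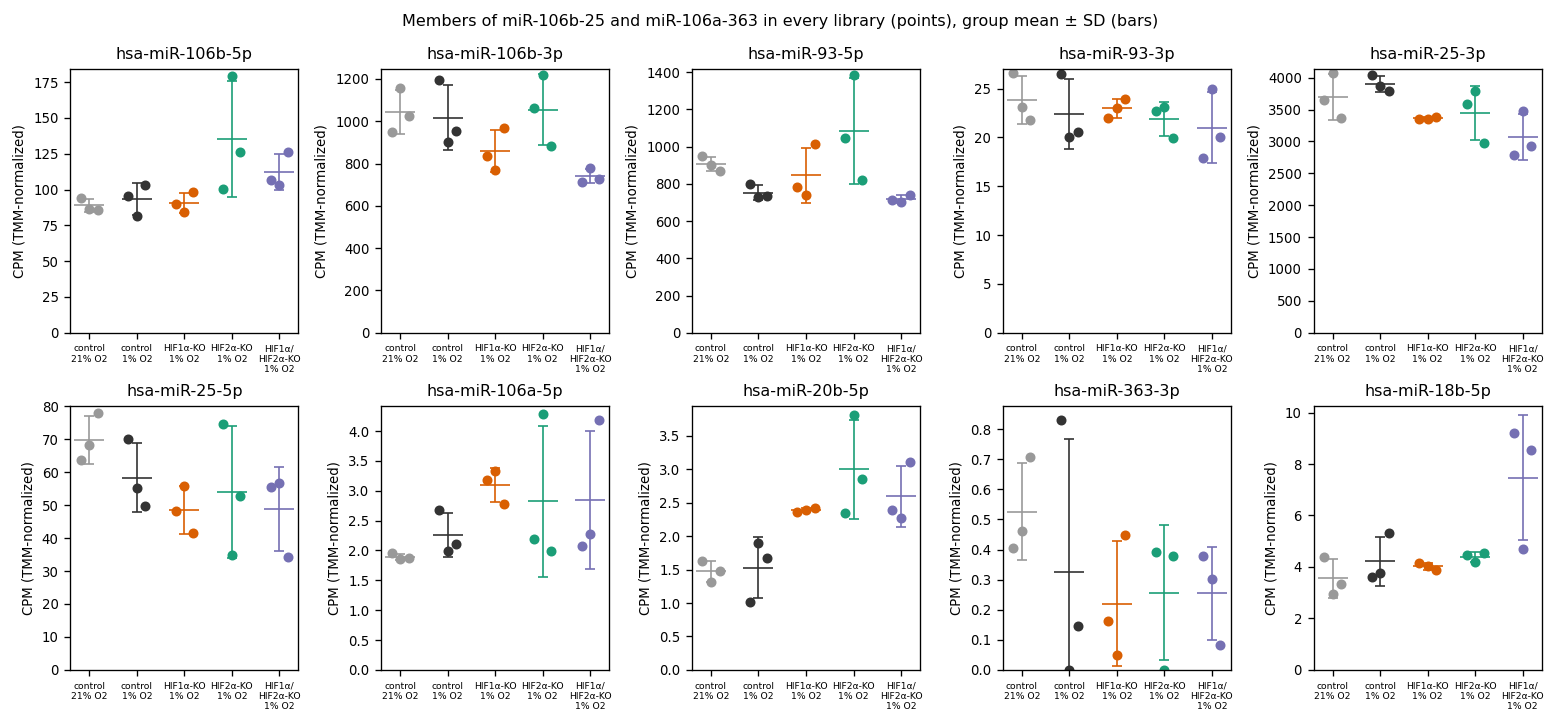
TMM-scaled CPM of the 10 members in every library (points, 3 per group) with the group mean ± SD, in the 5 groups. HIF2α-KO replicate 2 is the highest library for miR-93-5p (1384 CPM) and miR-106b-5p (179 CPM), and for miR-18b-5p HIF1α/HIF2α-KO replicates 1 and 3 (9.19 and 8.53 CPM) lie above every other library.

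The 3 comparisons above share the hypoxic control libraries. Compared with each other, the knockouts gave 0 members with an adjusted p under 0.05 in each case. In HIF2α-KO against HIF1α-KO cells 1.07% of all miRNAs passed, and 17.4% had an unadjusted p under 0.05, among them miR-106b-5p (log2 fold change 0.58, SE 0.19, edgeR adjusted p = 0.129) and miR-93-5p (0.36, SE 0.17, edgeR adjusted p = 0.282). Without HIF2α-KO replicate 2 these were 0.27 and 0.09, with edgeR adjusted p of 0.508 and 0.848. In HIF1α/HIF2α-KO against HIF1α-KO cells 1.42% of all miRNAs passed, and 14.9% had an unadjusted p under 0.05, among them miR-18b-5p (0.89, SE 0.25, edgeR adjusted p = 0.083). Without HIF1α/HIF2α-KO replicate 2 that difference was 1.16 with an edgeR adjusted p of 0.020, and without replicate 1 it was 0.69 with 0.367.

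In HIF1α/HIF2α-KO against HIF2α-KO cells 1.78% of all miRNAs passed, and 19.9% had an unadjusted p under 0.05. The members among the latter were miR-93-5p (-0.59, SE 0.17, edgeR adjusted p = 0.079), miR-106b-3p (-0.51, SE 0.15, edgeR adjusted p = 0.080) and miR-18b-5p (0.76, SE 0.25, edgeR adjusted p = 0.113). With each library left out in turn, miR-93-5p ran from -0.71 (edgeR adjusted p = 0.032, without HIF2α-KO replicate 3) to -0.37 (0.262, without HIF2α-KO replicate 2). In the same way miR-18b-5p ran from 0.59 (edgeR adjusted p = 0.365, without HIF1α/HIF2α-KO replicate 1) to 1.05 (0.034, without HIF1α/HIF2α-KO replicate 2), and for each miRNA 1 of the 6 fits passed.

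Whether the effect of HIF1α knockout depended on HIF2α was tested as the interaction of the knockouts. 0 of 9 members had an adjusted p under 0.05, as had 0% of all miRNAs, and 3 members were among the 10.5% with an unadjusted p under 0.05. The interaction with the lowest p was that of miR-93-5p (log2 difference -0.76, SE 0.23, 95% interval -1.26 to -0.26, edgeR adjusted p = 0.378), followed by miR-20b-5p (-0.82, SE 0.35) and miR-18b-5p (0.83, SE 0.36), both with an edgeR adjusted p of 0.439.

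Hypoxic control cells were also compared with normoxic control cells. All 3 normoxic libraries were in the higher miR-126 set, and of the hypoxic ones only replicate 1, so oxygen and that split partly coincided. Of the 9 members tested, 0 passed at either threshold, while 0% of all miRNAs had an adjusted p under 0.05 and 6.23% an unadjusted p under 0.05. miR-93-5p was at 947, 903 and 871 CPM in normoxia and at 797, 730.2 and 733 CPM in hypoxia, without overlap (log2 fold change -0.27, SE 0.17, edgeR adjusted p = 0.785). For miR-25-3p the 95% interval ran from -0.17 to 0.33 and for miR-106b-3p from -0.35 to 0.27. miR-210-3p, which hypoxia is known to induce, did not pass either (log2 fold change -0.19, SE 0.30, edgeR adjusted p = 0.841).

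**Figure D3:**
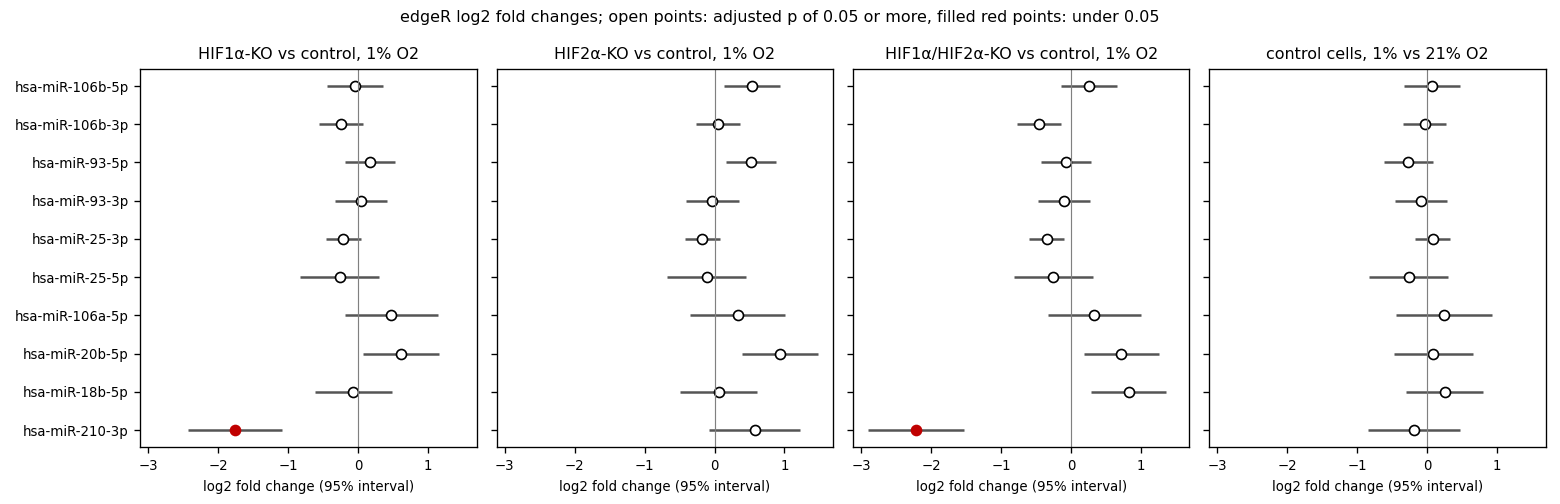
edgeR log2 fold changes with 95% intervals of the 9 members tested and of miR-210-3p, in the 3 knockouts against control cells in hypoxia and in hypoxic against normoxic control cells. All members' points are open (adjusted p of 0.05 or more), and miR-210-3p passed without HIF1α (-1.76) and without both factors (-2.21).

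The strands of the hairpins were compared within each library, a ratio that does not depend on how libraries are scaled. The 5p strand took 97.1% to 98.0% of the miR-93 counts and 1.42% to 1.87% of the miR-25 counts as group means. In the miR-106b hairpin the 3p strand dominated, although the 5p strand is the one with the miR-17 seed. The 5p share of miR-106b was 9.02%, 6.96% and 7.73% in normoxic control libraries, 7.42%, 8.29% and 9.77% in hypoxic control libraries, and 9.68%, 9.85% and 9.22% in HIF1α-KO libraries. It was 8.62%, 12.9% and 12.5% in HIF2α-KO libraries and 13.01%, 11.7% and 14.8% in HIF1α/HIF2α-KO libraries. All HIF1α/HIF2α-KO libraries lay above every hypoxic and normoxic control library.

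The log2 ratio of the 5p to the 3p strand of miR-106b differed by 0.71 (SE 0.19) between HIF1α/HIF2α-KO and control cells in hypoxia, with an adjusted p of 0.134 (limma over 131 hairpins). It ranked 2 of 131 by p, while 0% of hairpins had an adjusted p under 0.05 in this and in each of the other 7 comparisons. The strands differ in base composition (42.9% GC in miR-106b-5p, 63.6% in miR-106b-3p), and log2 CPM changed with GC content by -0.16 to -0.09 per 10 percentage points in HIF1α/HIF2α-KO libraries, against -0.15, -0.08 and 0.12 in hypoxic control libraries. With a correction for GC content, chosen after seeing the data, the difference was 0.39 with a limma adjusted p of 0.482. In HIF2α-KO against control cells the miR-106b ratio differed by 0.45 (SE 0.19, limma adjusted p = 0.301). With each library left out in turn it ran from 0.33 (limma adjusted p = 0.719, without HIF2α-KO replicate 2) to 0.66 (0.038, without HIF2α-KO replicate 1), and 1 of the 6 fits passed. The miR-93 ratio differed by 0.51 (SE 0.17, limma adjusted p = 0.232) in that comparison, and the miR-25 ratio by 0.02 (SE 0.29).

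**Figure D4:**
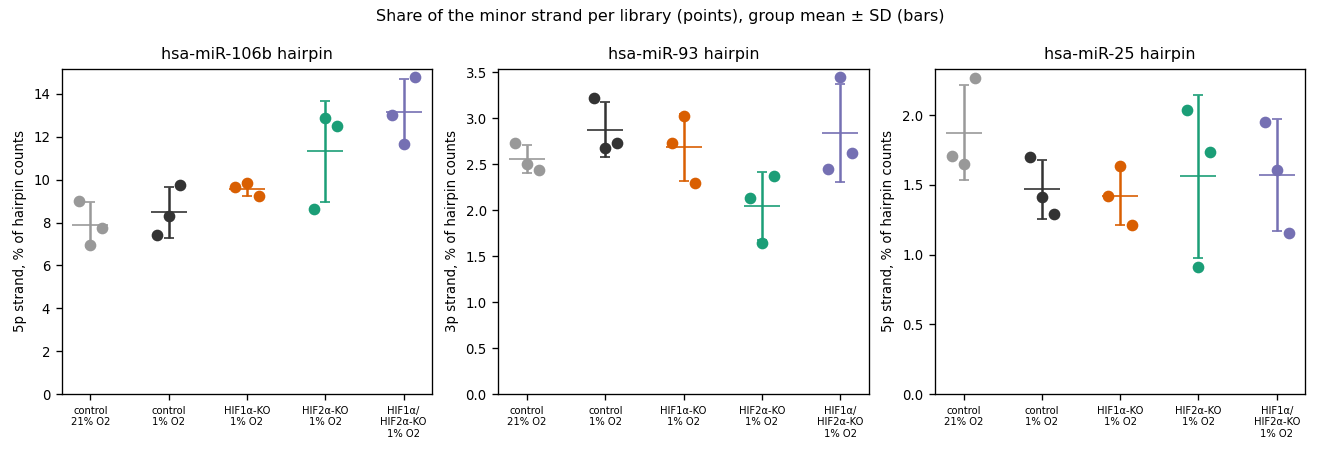
Share of the minor strand in percent of the hairpin's counts, per library (points) with the group mean ± SD, for miR-106b (5p), miR-93 (3p) and miR-25 (5p). The 5p share of miR-106b is 11.7% to 14.8% in HIF1α/HIF2α-KO libraries and 7.42% to 9.77% in hypoxic control libraries.

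Because miRNAs with a common seed share targets, their CPM were also summed. The 8 miRNAs with the AAAGUGC seed, of which 4 are members, summed to 1335, 1267 and 1359 CPM in hypoxic control libraries. The sums were 1479.7, 1418 and 1687 CPM in HIF1α-KO, 1735, 2607 and 1625 CPM in HIF2α-KO and 1465, 1514 and 1596 CPM in HIF1α/HIF2α-KO libraries. Each knockout group lay above the hypoxic controls, by 0.21, 0.59 and 0.21 on the log2 scale. Without HIF1α-KO replicate 3 the first of these was 0.13, and without HIF2α-KO replicate 2 the second was 0.35. Each exact two-sided permutation test gave p = 0.1, the smallest that 3 against 3 can give, and 0.263 after adjustment over 21 comparisons of seed sums. In normoxic control cells the sum was 1535, 1402 and 1421 CPM, also above the hypoxic controls.

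Members held a smaller part of this sum without both factors. Their share was 67.1%, 64.4% and 61.8% in hypoxic control libraries, 59.5%, 58.6% and 66.3% in HIF1α-KO, 66.3%, 60.3% and 58.7% in HIF2α-KO and 68.1%, 70.8% and 67.6% in normoxic control libraries. In HIF1α/HIF2α-KO libraries it was 56.4%, 53.4% and 54.9%, below every other library. Against hypoxic control libraries the exact permutation test of this share gave an unadjusted p of 0.1, the smallest it can give here. The same test gave 0.3 for HIF1α-KO and 0.4 for HIF2α-KO against hypoxic control libraries. It also gave 0.1 for hypoxic against normoxic control libraries. The rest of the sum was almost wholly miR-17-5p and miR-20a-5p, since miR-519d-3p and miR-526b-3p had at most 2 counts in a library. GC content was 52.2% in miR-93-5p, 47.8% in miR-17-5p and 39.1% in miR-20a-5p, and the part of base composition in this share was not tested.

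**Figure D5:**
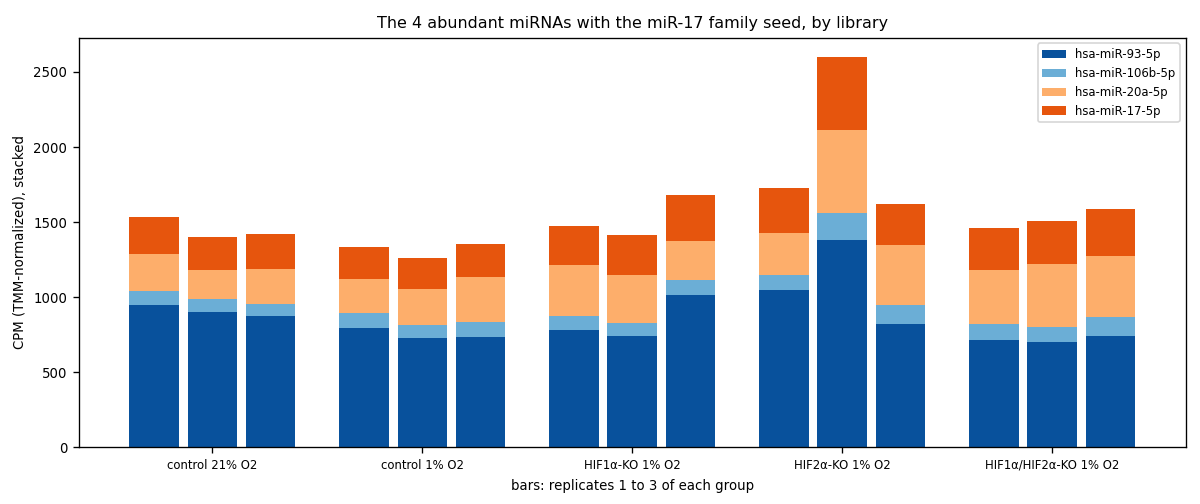
Stacked TMM-scaled CPM of miR-93-5p, miR-106b-5p, miR-20a-5p and miR-17-5p in each of the 15 libraries, with replicates 1 to 3 of each group side by side. The members (blue) make up 53.4% to 56.4% of the seed sum in HIF1α/HIF2α-KO libraries and 58.6% to 70.8% in the others, and HIF2α-KO replicate 2 has the tallest bar (2607 CPM for all 8 miRNAs).

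The 5 miRNAs with the AUUGCAC seed were more abundant, and their sum was dominated by miR-92a-3p. In hypoxic control libraries they summed to 17591, 13754 and 14054 CPM, and in HIF1α/HIF2α-KO libraries to 13742, 14647 and 13024 CPM, which overlapped (log2 ratio -0.13, exact permutation p = 0.4). The members, in effect miR-25-3p, held 19.6% to 28.1% of this sum. The pair with the AAGGUGC seed summed to 7.19, 7.52 and 10.7 CPM in hypoxic control libraries and to 18.6, 9.47 and 17.4 CPM in HIF1α/HIF2α-KO libraries. These groups overlapped (log2 ratio 0.84, exact permutation p = 0.2, and 0.35 after adjustment). To these sums miR-18a-5p and miR-18b-5p gave nearly equal counts.

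Over the 15 libraries, the miRNA outside the clusters whose log2 CPM was most like that of miR-106b-5p was miR-16-5p (Pearson's r = 0.94, Spearman's rho = 0.83, and r = 0.86 without the 2 libraries farthest from the median). For miR-18b-5p it was miR-18a-5p (r = 0.998), and for miR-20b-5p miR-20a-5p (r = 0.86). For miR-93-5p it was miR-874-3p (r = 0.88), for miR-106b-3p miR-339-3p (r = 0.88), and for miR-25-5p miR-4521 (r = 0.91). For miR-106a-5p it was miR-3117-3p (r = 0.86), for miR-25-3p miR-424-3p (r = 0.77), and for miR-93-3p miR-484 (r = 0.76). These libraries share group, depth and base composition, and the values are descriptions of them.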

How the data were processed

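U87-MG miRNA-Seq libraries (15, in 5 groups of 3) were grouped by the genotype, oxygen and replicate number in their labels. The values the authors deposited are raw counts for each mature miRNA, whole numbers that were not normalized. Their processing notes name HISAT2, StringTie and DESeq2 without roles. The genome build, read filters and treatment of reads that fit several miRNAs are not given in the sources used here. Members, lists and tests were chosen with earlier results of these data known.

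Counts were fitted with edgeR 4.0.16 in R 4.3.3 (TMM factors, filterByExpr, a mean for each group in a single fit of all libraries, quasi-likelihood test, Benjamini-Hochberg adjustment over 562 miRNAs, threshold 0.05). Intervals are the estimate plus or minus the t quantile times its SE. The log2 ratio of the strands (pseudocount 0.5, both strands with a mean of at least 10 counts) was tested with limma 3.58.1 over 131 hairpins. Sums of CPM over a seed, and the members' share of them, were compared with two-sided exact permutation tests. Fits were tested on simulated data with log2 fold changes of 1 in HIF1α/HIF2α-KO against control cells. There edgeR recovered 63.8% of 196 changed miRNAs among 547 tested, and 3.85% of its calls were false. In the data 33 of 562 miRNAs were called in that comparison, and recovery with that number changed was not simulated. Smaller fold changes were not simulated. Log2 CPM for likeness used a prior count of 2. RefSeq sequences matched 1545 of 1707 miRNAs and all 10 members.

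The text names all members, other products of the clusters, MIR17HG cluster products, miRNAs with a member's seed, the closest miRNA to each member outside the clusters, and miR-210-3p. Products absent from the tables, such as the 3p strand of miR-106a, were not analysed here. No replicates were copies (smallest chi-square per degree of freedom 49.3). Alternatives were DESeq2 1.42.0 size factors and Wald test, total counts, limma on quantile-normalized values, other filters, fewer libraries, the replicate block, the miR-126 set as a covariate, and a GC correction (loess span 0.75) added after seeing the data.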

Additional observations from a re-analysis of the deposited data

How the results depend on the processing

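The 17 member fold changes with an unadjusted p under 0.05 kept their sign in all 290 alternative values, and 10 of these values had an adjusted p under 0.05. The 17 were chosen by that p and refitted on the same counts, so a change of sign was unlikely from the start. In HIF1α/HIF2α-KO against control cells the number of members past the threshold, 0 in the fit reported, was 1 with total counts, 1 with the DESeq2 Wald test, 1 with the GC correction and 2 with the miR-126 set as a covariate. The member was miR-18b-5p each time (log2 fold changes of 0.88, 0.84, 0.87 and 0.88), joined by miR-20b-5p (0.88, adjusted p = 0.034 with edgeR) under the covariate. These settings also called more of all miRNAs tested in this comparison. The fit reported called 7 higher and 26 lower of 562. Total counts called 25 and 25 of 562, and the DESeq2 Wald test 23 and 37 of 562. The GC correction called 29 and 31 of 513, and the covariate 29 and 32 of 562. Leaving out a library gave 0 to 1 members in this comparison and in HIF1α/HIF2α-KO against HIF1α-KO and HIF2α-KO cells, and 0 to 1 hairpins in the strand ratios of HIF2α-KO against control cells. In the other comparisons and settings the number of members was 0. The replicate block also gave 0 members in each comparison. Same-numbered libraries correlated between -0.62 and 0.55 in their deviations from group means. With 3 libraries a group, these values cannot settle whether the numbers pair the libraries.

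The sum for the AAGGUGC seed in HIF2α-KO against HIF1α-KO cells (log2 ratio 0.15) turned to -0.028 with total counts. Total counts moved the median of all miRNAs to -0.15 in HIF2α-KO against control cells, and in HIF1α/HIF2α-KO against control cells gave 25 higher and 25 lower calls in place of 7 and 26, while the DESeq2 Wald test gave 23 and 37. The other 55 member fold changes changed sign in 89 of 916 alternative values, 0 of them past the threshold. Counts were lowest for miR-363-3p, miR-20b-5p and miR-106a-5p, with at most 68 a library.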
